A study of Rattus norvegicus with 20 samples.

Results

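Mast cells and eosinophils of the rat oesophagus were followed through 9 genes, 7 of them mast cell genes (Tpsab1, Cpa3, Cma1, Hdc, Fcer1a, Ms4a2 and Kit) and 2 eosinophil genes (Ccr3 and Il5ra). The members were taken as every non-control array row that carried one of these gene names, which gave 10 probes of 30367, since Fcer1a has 2. Of the 9 genes 7 passed the filter on dim probes and were tested among 13618 genes, and Ms4a2 and Il5ra did not pass. Oesophagi of Wistar rats were taken 10 days after surgery that induces reflux oesophagitis, or after sham surgery. Their RNA was hybridised to one-colour arrays, with 4 arrays in each of 5 groups. The groups with oesophagitis received STW5 at 2 ml/kg, STW5 at 0.5 ml/kg, omeprazole at 30 mg/kg or no treatment, and the sham group had surgery without reflux. STW5 is a herbal preparation of several plant extracts, and omeprazole lowers gastric acid by blocking the proton pump. Drug treatment began 7 days before surgery and went on until the animals were killed, so the arrays show oesophagitis that developed under treatment.

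Mast cells are tissue cells that store proteases and histamine in granules and release them when IgE bound to the high-affinity receptor FceRI is crosslinked; their survival depends on stem cell factor, the ligand of the receptor kinase Kit. Eosinophils are granulocytes that mature under interleukin 5 and enter tissue along eotaxins, which they sense through the chemokine receptor Ccr3. Both cell types live in the gut wall, and eosinophils in the squamous epithelium are a feature that pathologists read in oesophageal biopsies.

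The labels of the STW5 arrays conflict. The 8 STW5 columns of the deposited value table match the scanner files of the other dose, while the other 12 columns match the file of their own sample, and the group numbers in the sample titles run opposite to those in the study's design text. All values here are of the scanner files under the labels they carry, the STW5 arrays are called by their labelled dose, and if the value table is right each statement on one dose belongs to the other. Arrays 1 and 2 labelled 0.5 ml/kg differed by little more than repeated spots on 1 array (spread ratio 1.11, against 2.62 for the closest other pair within a group), so their mean was counted as 1 sample, which left 19 samples and n = 3 at that dose. The closest pair between groups, sham array 2 and omeprazole array 2, had a ratio of 2.12 although they lay on different slides. Sham arrays lay on slide 1, untreated and 0.5 ml/kg arrays on slide 2, and 2 ml/kg and omeprazole arrays on slide 3. Slide and group therefore cannot be told apart except for 0.5 ml/kg against untreated and for 2 ml/kg against omeprazole. Between 61.5% and 70.5% of features were well above background on an array, and no feature was saturated. Nothing says more of the samples than that each group had 4 animals, so p-values measure the spread between these arrays.

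The defining markers were unevenly represented. Of the mast cell members, Cma1 was well above background on 20 of 20 arrays, Tpsab1 and Hdc on 19, Cpa3 on 16, Kit on 15, Fcer1a on 7 and Ms4a2 on 2. Of the eosinophil members, Ccr3 was well above background on 7 arrays and Il5ra on 0. Among other eosinophil genes, eosinophil peroxidase Epx and the major basic protein homologue Prg3 were well above background on 0 arrays, and Prg2, which encodes eosinophil major basic protein, on 20. The eosinophil side of the list therefore rests on Ccr3 alone. In whole tissue RNA, fewer cells of a type and less RNA per cell cannot be told apart.

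Levels are given as log2 of the processed signal minus that array's 75th percentile, so 0 is the signal at the 75th percentile of the array and a difference of 1 is a factor of 2. A gene was called higher or lower at a limma adjusted p under 0.05 over all 13618 genes. Over the 5 groups together, limma's F test called 3 of the 7 tested members, Ccr3 (adjusted p = 0.000171), Tpsab1 (adjusted p = 0.00445) and Kit (adjusted p = 0.00647), which is 3 of 7 against 38.6% of all genes. Cpa3, Hdc, Cma1 and Fcer1a did not pass, with adjusted p between 0.118 and 0.747.

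The signals of Ccr3, Il5ra and Cpa3 come from single probes, shown here because the contrast between a receptor that was measured and one that stayed at background rests on them. The sequences are those in the scanner files, with rn4 positions from the same files: Ccr3 at chr8:128769167-128769226 on the plus strand, Il5ra at chr4:142067108-142067167 on the minus strand and Cpa3 at chr2:105385518-105385577 on the minus strand. Each is 60 bases long, with 45%, 35% and 38.3% G and C.
Ccr3 probe: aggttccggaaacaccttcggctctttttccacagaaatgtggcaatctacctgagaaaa
Il5ra probe: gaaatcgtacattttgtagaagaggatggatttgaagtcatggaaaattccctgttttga
Cpa3 probe: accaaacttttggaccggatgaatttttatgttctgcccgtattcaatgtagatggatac
The promoters of Tpsab1, Cpa3 and Ccr3 are shown because these members differ in which groups moved and yet share a motif of the GATA family, whose member Gata2 is a transcription factor of mast cell and eosinophil precursors. RefSeq promoters (GRCr8, 300 bases) were found for 8 of the 9 members, and capitals mark GATAA or its reverse complement TTATC. They ran from 250 bases before to 50 after the outer start of the gene for 19339 of 33469 genes compared. The sequences listed as promoters of Ccr3 and Il5ra lay wholly inside the gene spans given below, so they are not at the outer start of these genes.
Tpsab1, chr10:14867253-14867552, minus strand: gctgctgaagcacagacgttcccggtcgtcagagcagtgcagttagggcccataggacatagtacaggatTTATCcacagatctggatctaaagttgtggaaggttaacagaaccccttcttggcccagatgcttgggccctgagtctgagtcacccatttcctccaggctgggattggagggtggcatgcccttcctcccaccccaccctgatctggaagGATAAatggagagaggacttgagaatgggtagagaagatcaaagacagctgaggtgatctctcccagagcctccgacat
Cpa3, chr2:104673188-104673487, minus strand: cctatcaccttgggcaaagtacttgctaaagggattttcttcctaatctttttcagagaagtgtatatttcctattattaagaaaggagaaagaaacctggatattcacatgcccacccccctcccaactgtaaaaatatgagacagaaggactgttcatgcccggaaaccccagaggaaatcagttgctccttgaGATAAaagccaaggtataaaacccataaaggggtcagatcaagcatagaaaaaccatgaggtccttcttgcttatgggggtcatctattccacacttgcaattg
Ccr3, chr8:132499999-132500298, plus strand: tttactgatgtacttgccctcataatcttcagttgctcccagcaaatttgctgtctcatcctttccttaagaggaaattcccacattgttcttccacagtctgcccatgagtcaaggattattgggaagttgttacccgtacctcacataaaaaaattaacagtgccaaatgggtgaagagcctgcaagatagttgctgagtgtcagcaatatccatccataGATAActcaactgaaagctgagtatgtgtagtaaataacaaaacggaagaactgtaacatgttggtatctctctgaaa
GATAA on either strand occurred in the promoters of 5 of 8 members (Tpsab1 with 2 copies, Cpa3, Cma1, Fcer1a and Ccr3) and in 26.5% of 33465 RefSeq promoters of the same length.

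Tpsab1 encodes a tryptase, a trypsin-like protease of mast cell granules (GRCr8 chromosome 10, 14864887 to 14867302). Its level was -1.21, -0.87, -1.08 and -0.75 on the 2 ml/kg arrays, -5.00, -5.10, -3.44 and -1.80 on the 0.5 ml/kg arrays, -1.61, -3.11, -3.54 and -2.24 on the omeprazole arrays, -0.98, -0.12, -0.56 and -0.10 on the untreated arrays and -3.96, -3.30, -2.35 and -1.50 on the sham arrays. Every untreated and every 2 ml/kg array was above every sham, omeprazole and 0.5 ml/kg array. Against sham, Tpsab1 rose in untreated oesophagitis by 2.34 ± 0.60 (SE; adjusted p = 0.00721). Against untreated, it fell by 2.99 ± 0.64 at 0.5 ml/kg (adjusted p = 0.00199) and by 2.18 ± 0.60 with omeprazole (adjusted p = 0.0126). At 2 ml/kg its difference from untreated was -0.54 ± 0.60 (adjusted p = 0.587), with a 95% interval of -1.79 to 0.72. Tpsab1 has a close paralogue in Tpsb2, and whether a probe of one also binds RNA of the other is not known from the array.

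Cpa3 encodes carboxypeptidase A3, an exopeptidase stored in mast cell granules (GRCr8 chromosome 2, 104641619 to 104673253). Its level was -3.79, -3.11, -3.35 and -3.66 at 2 ml/kg, -6.34, -6.98, -6.08 and -3.39 at 0.5 ml/kg, -4.49, -4.39, -3.81 and -3.18 with omeprazole, -3.03, -2.98, -4.13 and -2.24 in untreated oesophagitis and -5.39, -4.31, -2.93 and -1.10 in sham animals. Sham arrays spanned the widest range, from below to above all untreated arrays, and 3 of the 4 arrays at 0.5 ml/kg were not well above background. Cpa3 fell by 2.28 ± 0.83 at 0.5 ml/kg against untreated (adjusted p = 0.0394), although array 4 of that dose overlapped the untreated arrays. This call ended without any 1 of 5 samples: untreated 1, 2 or 4, 0.5 ml/kg array 3, or the averaged 0.5 ml/kg arrays 1 and 2, which left changes of -1.64 to -2.26 with adjusted p between 0.0646 and 0.189. Untreated against sham gave 0.34 ± 0.77 (adjusted p = 0.769; 95% interval -1.28 to 1.96), which became 1.12 without sham array 4 and -0.31 without sham array 1.

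Cma1 encodes chymase 1, a chymotrypsin-like granule protease (GRCr8 chromosome 15, 33387351 to 33390133). Its level was 0.25, -0.15, -0.21 and -0.11 at 2 ml/kg, -3.29, -3.47, -1.96 and -0.03 at 0.5 ml/kg, -0.23, -1.34, -1.47 and 0.01 with omeprazole, -0.19, -0.02, -1.50 and 0.72 in untreated oesophagitis and -0.85, -1.19, 0.23 and 2.06 in sham animals. The untreated and sham arrays overlapped throughout, and the highest of all 20 arrays was sham array 4. No contrast of Cma1 passed the test. Untreated against sham gave -0.31 ± 0.71 (adjusted p = 0.769; 95% interval -1.80 to 1.18), and its direction turned without sham array 4 (0.36) and without untreated array 3 (0.10). At 0.5 ml/kg against untreated the change was -1.54 ± 0.76 (adjusted p = 0.121), and without 0.5 ml/kg array 4 it was -2.42 with an adjusted p of 0.0202.

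Hdc encodes histidine decarboxylase, the enzyme that makes histamine (GRCr8 chromosome 3, 134300628 to 134318704). Its level was -3.24, -2.29, -2.32 and -2.10 at 2 ml/kg, -3.94, -4.12, -5.46 and -3.34 at 0.5 ml/kg, -3.17, -3.80, -4.09 and -2.80 with omeprazole, -2.92, -3.20, 0.24 and -2.18 in untreated oesophagitis and -3.24, -4.04, -2.64 and -1.06 in sham animals. Untreated array 3 stood well above the rest, and every 0.5 ml/kg array was below every untreated array. Hdc fell by 2.26 ± 0.76 at 0.5 ml/kg against untreated (adjusted p = 0.0277). The call ended without untreated array 3 (-1.50, adjusted p = 0.0821), without 0.5 ml/kg array 3 (-1.66, adjusted p = 0.142) and without the averaged 0.5 ml/kg arrays 1 and 2 (-2.38, adjusted p = 0.0575). Untreated against sham gave 0.72 ± 0.70 (adjusted p = 0.460), and -0.03 without untreated array 3.

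Fcer1a and Ms4a2 encode the alpha and beta chains of FceRI, of which the alpha chain binds IgE (GRCr8 chromosome 13, 88218427 to 88224723, and chromosome 1, 217864855 to 217873934). Fcer1a was at -5.59, -4.99, -5.86 and -5.35 at 2 ml/kg, -7.01, -7.43, -6.90 and -5.15 at 0.5 ml/kg, -5.12, -5.74, -6.94 and -4.93 with omeprazole, -5.80, -5.51, -6.61 and -3.12 in untreated oesophagitis and -6.39, -7.75, -5.66 and -3.61 in sham animals. All 5 groups overlapped, the 0.5 ml/kg group having the lowest mean. No contrast of Fcer1a passed, and the 95% interval of untreated minus sham ran from -1.09 to 2.28. The other Fcer1a probe, with 10 spots where the tested one had 1, was well above background on 1 of 20 arrays. Like the first it was highest among sham animals on array 4, but its group means had another order. Sham was highest (-6.62), above untreated (-6.96), where the tested probe had -5.85 and -5.26. Omeprazole was lowest (-7.38), below 0.5 ml/kg (-7.21). Ms4a2 lay between -8.25 and -5.12 over all arrays, and its highest value was again sham array 4.

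Kit is the receptor tyrosine kinase for stem cell factor and is carried by mast cells, interstitial cells of Cajal and melanocytes (GRCr8 chromosome 14, 32901615 to 32978895). Its level was -5.02, -4.75, -4.70 and -4.36 at 2 ml/kg, -6.81, -6.32, -6.72 and -6.29 at 0.5 ml/kg, -5.50, -4.70, -5.08 and -5.75 with omeprazole, -4.00, -4.68, -5.33 and -4.31 in untreated oesophagitis and -6.43, -5.03, -4.90 and -4.52 in sham animals. None of the arrays at 0.5 ml/kg was well above background, and all lay below every untreated and every 2 ml/kg array. Folds against such a group are lower bounds, computed from the lowest signal well above background on its arrays or the probe's own signal, whichever was higher. Kit was at least 3.21-fold lower at 0.5 ml/kg than in untreated oesophagitis (group means -6.53 and -4.58; adjusted p = 0.00118). With normexp background correction in place of the processed signal this difference was -0.05 (adjusted p = 0.804), so the call ended. That setting adds an offset of 50 to each signal. Processed signals of Kit were 21.3 to 53.3 in untreated animals and 5.02 to 7.54 at 0.5 ml/kg. An offset of that size shrinks log2 changes of so dim a probe, so this setting cannot decide on the call. Its untreated minus sham difference was 0.64 ± 0.36 (adjusted p = 0.182), or 0.24 without sham array 1. That of 2 ml/kg minus untreated was -0.13 ± 0.36 (adjusted p = 0.840), or 0.06 without untreated array 1.
Of the markers of other Kit-bearing cells, 3 Cajal cell markers were tested, and their summed level, on a linear scale where 1 is the array's 75th percentile, was 5.23 to 9.67 at 0.5 ml/kg and 4.65 to 46.4 in untreated animals, with 1 of the 3 called higher and none lower. Of 6 melanocyte markers Pmel, Mlana and Tyr were well above background on 0 arrays, and Dct and Mitf were tested. Their summed level was 0.939 to 2.04 at 0.5 ml/kg, 1.47 to 2.26 in untreated and 1.08 to 2.08 in sham animals. Linear sums are weighted to the genes with the highest levels. At 0.5 ml/kg the log2 means of the Cajal markers were 2.40 for Thbs4, 0.97 for Ano1 and -7.17 for Etv1. Those of the melanocyte markers were 0.37 for Mitf and -5.81 for Dct. Dct was called higher at 0.5 ml/kg than in untreated animals (1.36 ± 0.38, adjusted p = 0.0109) and lower in untreated than in sham animals (-1.62 ± 0.35, adjusted p = 0.00289), and Mitf, which mast cells also express, was not called in either. The part of Cajal cells and melanocytes in the Kit result was not tested.

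Ccr3, the eotaxin receptor, gave the clearest pattern of the members (GRCr8 chromosome 8, 132463533 to 132511601). Its level was -2.98, -4.63, -4.05 and -3.38 at 2 ml/kg, -6.89, -7.61, -7.40 and -6.70 at 0.5 ml/kg, -7.43, -7.06, -7.33 and -7.42 with omeprazole, -4.51, -4.57, -5.25 and -6.62 in untreated oesophagitis and -7.31, -7.79, -7.73 and -5.76 in sham animals. It was well above background on all 4 arrays at 2 ml/kg, on 3 untreated arrays and on none of the other 12. Untreated array 4 lay among the sham arrays, and sham array 4 was the highest of its group.
Ccr3 was at least 2.14-fold higher in untreated than in sham animals (group means -5.24 and -7.14; adjusted p = 0.00694). It was at least 2.17-fold lower at 0.5 ml/kg than in untreated animals (means -7.12 and -5.24; adjusted p = 0.0100) and at least 2.98-fold lower with omeprazole than without treatment (means -7.31 and -5.24; adjusted p = 0.00529). At 2 ml/kg it was 1.48 ± 0.48 above untreated, which did not pass (adjusted p = 0.0603; 95% interval 0.46 to 2.50). It did pass without sham array 4 (adjusted p = 0.0334) and without untreated array 2 (1.70, adjusted p = 0.0367).
At 2 ml/kg Ccr3 was at least 5.97-fold higher than in sham animals (adjusted p = 0.000339) and at least 6.06-fold higher than at 0.5 ml/kg (adjusted p = 0.000757). It was also at least 8.33-fold higher at 2 ml/kg than with omeprazole, on the same slide (means -3.76 and -7.31; adjusted p = 0.00407), where it ranked 4 of 13618 genes by p. Ccr3 met the filter of 4 arrays only with the 2 ml/kg arrays counted, so tests of that group are not independent of the filter. The omeprazole arrays, all at background with an SD of 0.17, enter the spread behind this p and rank. With normexp background correction in place of the processed signal, Ccr3 lost its call for untreated against sham (0.26, adjusted p = 0.275) and for 0.5 ml/kg against untreated (-0.08, adjusted p = 0.732). Processed signals of Ccr3 in these groups were 3.09 to 37.6, below the offset of 50 that this setting adds. The offset shrinks log2 changes at such levels, so the setting cannot decide on these calls.

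Il5ra, the interleukin 5 receptor chain that binds the cytokine (GRCr8 chromosome 4, 141186749 to 141221348), lay between -8.45 and -7.17 with no array well above background. Its group means ranged only from -8.09 ± 0.28 at 2 ml/kg to -7.34 ± 0.14 at 0.5 ml/kg (SD). These values are bounded by background and have no order. The ligand gene Il5, and Il3 and Il9, were likewise well above background on 0 arrays.

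**Figure D1:**
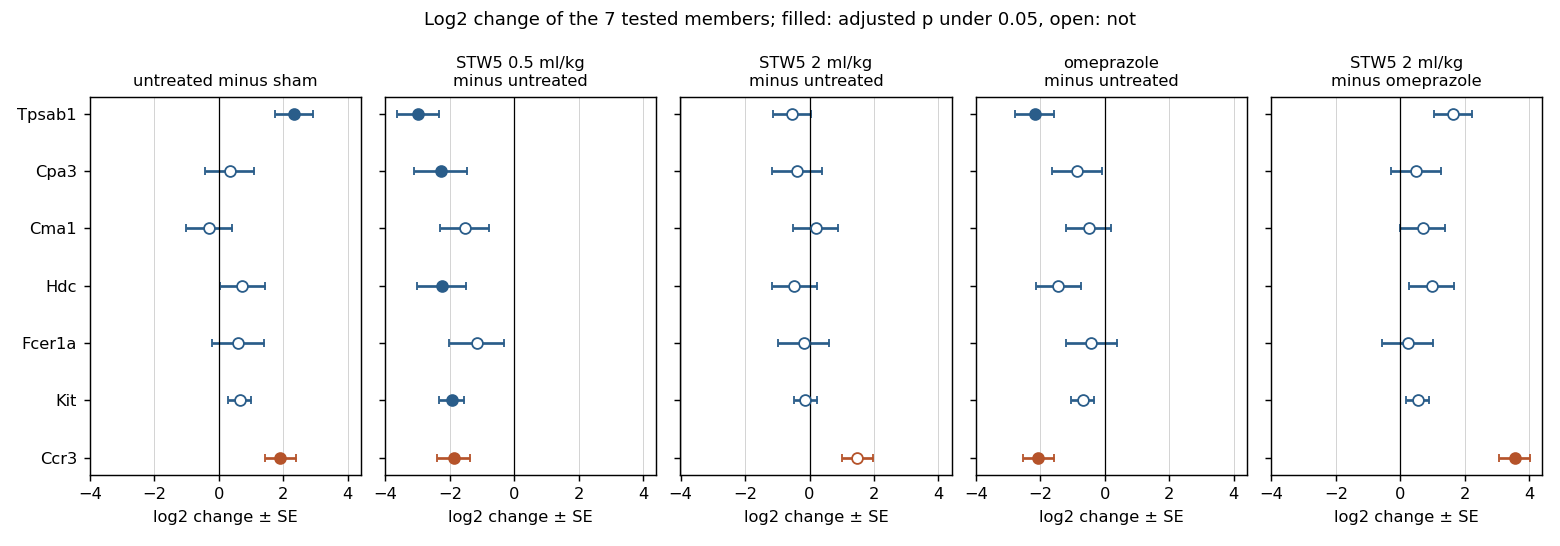
Log2 change ± SE (x axis) of the 7 tested members (y axis) in 5 contrasts, Ccr3 in brown and mast cell members in blue; filled points had an adjusted p under 0.05. All 7 changes are below 0 at 0.5 ml/kg against untreated, with 5 filled, while at 2 ml/kg against untreated none is filled and Ccr3 is at 1.48.

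Counted over the list, untreated oesophagitis against sham called 2 of 7 members higher (Tpsab1 and Ccr3) and 0 lower, where 14.9% of all genes were called higher. For 1 of 7, Tpsab1, the groups lay apart with untreated above, as they did for 11.7% of all genes. The median change of the 7 was 0.64, against -0.08 over all genes tested. Tpsab1 and Ccr3 kept both calls without either STW5 group in the fit, an alternative added after the data were seen (adjusted p = 0.00934 and 0.0179). The filter on dim probes was still that of all 20 arrays, which Ccr3 met only with the 2 ml/kg arrays counted. For Ccr3 this fit is therefore not free of the STW5 arrays.
Against untreated, 0.5 ml/kg called 5 of 7 lower (Tpsab1, Cpa3, Hdc, Kit and Ccr3), where 15.9% of all genes were called lower, and 4 of 7 lay wholly below untreated, as did 15.3% of all genes. The median change was -1.95, against 0.17 over all genes. Fitted within the 1 slide that holds both groups, 3 of 7 were called (Tpsab1, Kit and Ccr3), as Cpa3 (adjusted p = 0.0762) and Hdc (adjusted p = 0.102) missed the threshold. Left out in turn, the samples gave 3 to 6 calls: 3 without array 3 or the averaged arrays 1 and 2 of 0.5 ml/kg, and 6 without its array 4. The counts within the slide and with samples left out are given without the share of all genes, so they show only which calls moved.
Omeprazole against untreated called 2 of 7 lower (Tpsab1 and Ccr3), with 12.2% of all genes called lower, and all 7 changes were below 0 with a median of -0.87, against 0.10 over all genes. STW5 at 2 ml/kg against untreated called 0 of 7 by limma, with 9.58% of all genes called in either direction; 1 member, Ccr3, had an unadjusted p under 0.05, as did 28.1% of all genes, and the median change was -0.19, against -0.01 over all genes.

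Against sham, the 2 ml/kg arrays called 1 of 7 higher (Ccr3), with 6.12% of all genes called higher. The groups lay apart with 2 ml/kg above for 2 of 7, Ccr3 and Tpsab1, a count given without the share of all genes. Tpsab1 had a change of 1.80 ± 0.60 that did not pass (adjusted p = 0.0678). It passed without sham array 4 (2.23, adjusted p = 0.0301), without 0.5 ml/kg array 4 (adjusted p = 0.0357) and without the averaged 0.5 ml/kg arrays 1 and 2 (adjusted p = 0.0390). The 0.5 ml/kg arrays called 0 of 7 against sham by limma, with 0.00734% of all genes called; Kit (-1.30 ± 0.39), Cma1 (-1.85 ± 0.76) and Cpa3 (-1.94 ± 0.83) were lower at an unadjusted p under 0.05, as were 3.52% of all genes. Omeprazole against sham called 0 of 7, with 1.62% of all genes called and no member at an unadjusted p under 0.05, where 10.9% of all genes were.
Between the doses, 2 ml/kg called 3 of 7 higher than 0.5 ml/kg (Ccr3, Kit at least 2.93-fold with adjusted p = 0.00549, and Tpsab1 by 2.45 ± 0.64 with adjusted p = 0.0140), with 10.7% of all genes called higher. Tpsab1 lost this call without the averaged 0.5 ml/kg arrays 1 and 2 (1.64, adjusted p = 0.10). Without 0.5 ml/kg array 4, 5 of 7 were called, a count given without the share of all genes. At 2 ml/kg against omeprazole 1 of 7 was called higher (Ccr3), where 0.191% of all genes, 26 of 13618, were. The groups lay apart with 2 ml/kg above for 2 of 7, Ccr3 and Tpsab1, as for 7.96% of all genes, and Tpsab1 (1.65 ± 0.60, adjusted p = 0.198) passed only where the fit held these 2 groups alone (adjusted p = 0.0341).

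At 2 ml/kg against untreated, where no member was called, the 6 tested mast cell members had a median change of -0.29 and ranged from -0.54 (Tpsab1) to 0.19 (Cma1, which was -0.22 without untreated array 3), and Ccr3 was at 1.48; with omeprazole the mast cell median was -0.78 and Ccr3 was at -2.07. Whether Ccr3 differed from the mast cell members in its change was not tested. Over the 19 samples, which share arrays and scaling, pairs of mast cell members had a median Pearson correlation of 0.64 (15 pairs, 0.44 to 0.90) and pairs of a mast cell member with Ccr3 one of 0.38 (6 pairs, 0.23 to 0.68). With the group means taken off, these medians were 0.43 and 0.20.

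The genes most like each member, by Pearson correlation over the 19 samples and given as a description, were partly other genes of the same cells. Cpa3 was followed by Mcpt1l4 (0.90) and Mcpt1 (0.88), both mast cell protease genes of the rat, and Cma1 by Cav1 (0.92), Tph1 (0.91), which makes serotonin in rodent mast cells, and Mcpt1l4 (0.90). Ccr3 was followed by the lipoxygenase gene Alox12e (0.97), Padi2 (0.88) and Retnlg (0.88). With group means taken off, the highest correlations with Ccr3 were those of Alox12e (0.80) and Ccl24 (0.79), an eotaxin. Tpsab1 was closest to Cygb (0.95) and Igf1 (0.94), and Kit to the collagen genes Col1a1 (0.93) and Col15a1 (0.92). The nearest genes of Hdc were Slc12a4 (0.91) and Cntf (0.88), and those of Fcer1a Anapc4 (0.79) and Arc (0.78).

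Alox12e was at -1.55, -2.46, -2.03 and -2.05 at 2 ml/kg, between -7.69 and -6.60 at 0.5 ml/kg, between -7.82 and -7.37 with omeprazole, at -2.94, -2.97, -4.36 and -6.31 in untreated oesophagitis and between -7.94 and -6.86 in sham animals. As for Ccr3, untreated array 4 was the lowest of its group and 2 ml/kg stood highest.
Ccl11, which encodes eotaxin 1 and acts on Ccr3, was at 2.26, 2.21, 2.53 and 2.95 at 2 ml/kg, -3.72, -3.63, -2.72 and -1.22 at 0.5 ml/kg, -3.74, -1.47, -1.63 and -2.39 with omeprazole, 1.81, 2.64, 4.83 and 1.62 in untreated oesophagitis and -4.76, -1.60, -3.01 and -2.21 in sham animals. All 2 ml/kg and untreated arrays lay above all others. Ccl11 rose by 5.62 ± 0.75 in untreated against sham animals (adjusted p = 0.000185) and fell by 5.26 ± 0.81 at 0.5 ml/kg (adjusted p = 0.000313) and by 5.03 ± 0.75 with omeprazole (adjusted p = 0.000265) against untreated. At 2 ml/kg it was higher than with omeprazole by 4.79 ± 0.75 (adjusted p = 0.0145).

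**Figure D2:**
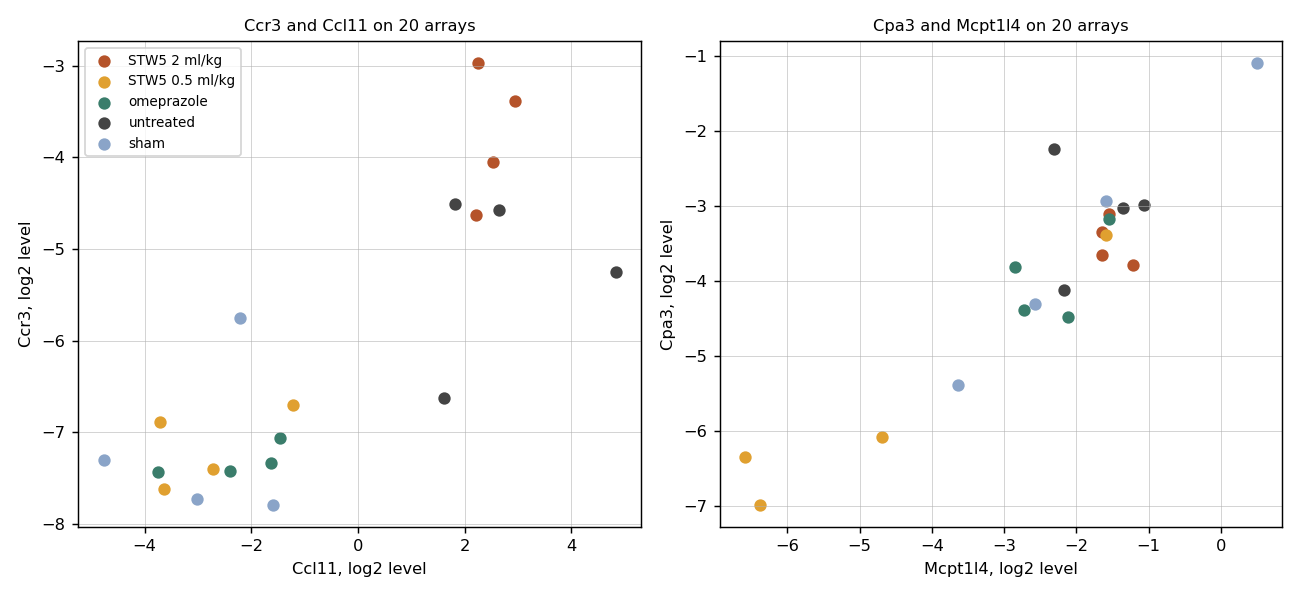
Left, log2 level of Ccr3 (y axis) against Ccl11 (x axis) on 20 arrays; right, Cpa3 (y axis) against Mcpt1l4 (x axis), coloured by group. On the left the 2 ml/kg arrays and 3 untreated arrays sit at the upper right, with untreated array 4 at a Ccl11 of 1.62 and a Ccr3 of -6.62; on the right sham array 4 is at the top and 3 arrays at 0.5 ml/kg at the bottom left.

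Of 21 listed ligands and growth factors of these receptors and cells, 11 were tested, and in untreated against sham animals 5 rose and 0 fell: Ccl11, Ccl7 (5.07 ± 0.78), Tgfb1, Il10 and Ccl5. Against untreated, 5 fell at 0.5 ml/kg, and among them was Kitlg, the Kit ligand (-0.76 ± 0.25, adjusted p = 0.0263). With omeprazole 5 fell, and Il10 and Tgfb1 fell at 2 ml/kg. Il33, an alarmin for mast cells, lay between -1.37 and 0.30 in untreated animals and between -0.45 and -0.22 in sham animals.
Of 19 genes of FceRI signalling, which are shared with other leukocytes, 16 rose in untreated against sham animals, led by Inpp5d (2.67 ± 0.37), Fcer1g, the common gamma chain (3.75 ± 0.56), and Lcp2 (3.12 ± 0.49). Against untreated, 16 fell at 0.5 ml/kg, 12 with omeprazole and 4 at 2 ml/kg (Lat2, Grb2, Inpp5d and Stat5a).
Of 10 genes of histamine handling and sensing 7 were tested. The histamine-degrading enzyme Aoc1 rose in untreated against sham animals (1.81 ± 0.64, adjusted p = 0.0381), and at 0.5 ml/kg against untreated Aldh7a1, Aoc1 and Maob fell and Hrh3 rose. Against untreated none of the 7 passed limma's test with omeprazole (changes of -1.09 to 0.70) or at 2 ml/kg (-0.58 to 0.95), and the receptor gene Hrh1 and the enzyme gene Hnmt were well above background on 0 arrays.

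Of 30 other mast cell genes 21 were tested. In untreated against sham animals 6 rose and 2 fell, with the smallest p for Cd63 (1.48 ± 0.25), the interleukin 33 receptor gene Il1rl1 (5.42 ± 0.99), the granule proteoglycan gene Srgn (3.54 ± 0.66) and Rab27b, which acts in granule release and fell by 1.51 ± 0.29. Cd63, Srgn and Il1rl1 are also expressed by other cells. Rab27b was well above background on 20 arrays. Its mean in sham animals was 1.42, against 0.06 for Cma1, the highest mast cell member there, and its cell source was not tested. None of the tested proteases of the Mcpt family was called in this contrast. At 0.5 ml/kg against untreated 11 fell and 1, Rab27b, rose (1.98 ± 0.31), and chosen here after their values were seen, the falls included the tryptase Tpsb2 (-2.17 ± 0.68, adjusted p = 0.0189), Mcpt1l4 (-2.53 ± 0.91, adjusted p = 0.0385), the transcription factor Gata2 (-1.29 ± 0.42, adjusted p = 0.0239) and prostaglandin D synthase Hpgds (-1.59 ± 0.37, adjusted p = 0.00357). With omeprazole 5 fell and 1 rose, and at 2 ml/kg 2 fell (Lat2 and Cd63). The Mcpt genes are near-identical copies in part, so a probe may report more than 1 of them.
Of 26 other eosinophil genes 17 were tested, and in untreated against sham animals 9 rose and 1, Cd9, fell. The smallest p belonged to Siglec10 (5.76 ± 0.76), Csf2ra (2.16 ± 0.31), Il3ra (1.43 ± 0.24) and Cebpe (2.97 ± 0.51), each also a gene of other myeloid or lymphoid cells. Against untreated, 11 fell at 0.5 ml/kg, 7 with omeprazole and 5 at 2 ml/kg. Prg2 was not called in any of the 9 contrasts, and ranged from -5.01 to -4.28 at 2 ml/kg, from -4.98 to -3.69 in untreated animals and from -5.01 to -4.47 in sham animals.

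Markers of other cells moved with the same groups. All 10 macrophage markers rose in untreated against sham animals, fell at 0.5 ml/kg and fell with omeprazole, and 3 fell at 2 ml/kg. Their summed level was 69.4 to 112 at 2 ml/kg, 10.4 to 43.2 at 0.5 ml/kg, 28.3 to 43.2 with omeprazole, 114 to 240 in untreated animals and 14.1 to 44.6 in sham animals. The summed level of the 6 tested mast cell members was 1.69 to 1.90 at 2 ml/kg, 0.215 to 1.50 at 0.5 ml/kg, 0.616 to 1.52 with omeprazole, 1.72 to 3.17 in untreated animals and 0.685 to 5.60 in sham animals. The macrophage sum did not overlap between untreated and sham animals. The mast cell sum overlapped through sham array 4 alone, which had the highest of all (its macrophage sum was 40.2), and without that array the highest sham sum was 1.71, just below the lowest untreated sum of 1.72. A linear sum is weighted to members with high levels. Untreated means were -0.25 for Cma1 and -0.44 for Tpsab1, against -4.58 for Kit and -5.26 for Fcer1a. Of the mast cell members only Tpsab1 was called for untreated against sham.
Of 8 tested neutrophil markers 6 rose in untreated animals, with a summed level of 25.8 to 287 against 1.14 to 45.5 in sham animals, or 1.14 to 1.59 without sham array 2. Without untreated array 3 the untreated range was 25.8 to 120. The 3 tested basophil markers summed to 0.895 to 2.85 in untreated and 0.392 to 2.20 in sham animals. The untreated range was 0.895 to 1.29 without untreated array 1, and the sham range 0.392 to 0.633 without sham array 4. Of the 3 basophil markers 1 rose, Il3ra, which is also a gene of other myeloid or lymphoid cells. Arrays left out of the mast cell, neutrophil and basophil sums were chosen after the sums were seen. Of 6 squamous epithelium markers 3 fell in untreated against sham animals and 4 rose at 0.5 ml/kg against untreated, of 5 skeletal muscle markers 3 fell in the first contrast and 3 rose in the second, and of 6 smooth muscle markers 2 fell in the first and 1 rose in the second. Of all genes 17.9% were called lower in the first and 21.7% higher in the second. No B or plasma cell marker passed the filter. The part of other cells in the results on Tpsab1, Ccr3 and the other members was not tested.

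**Figure D3:**
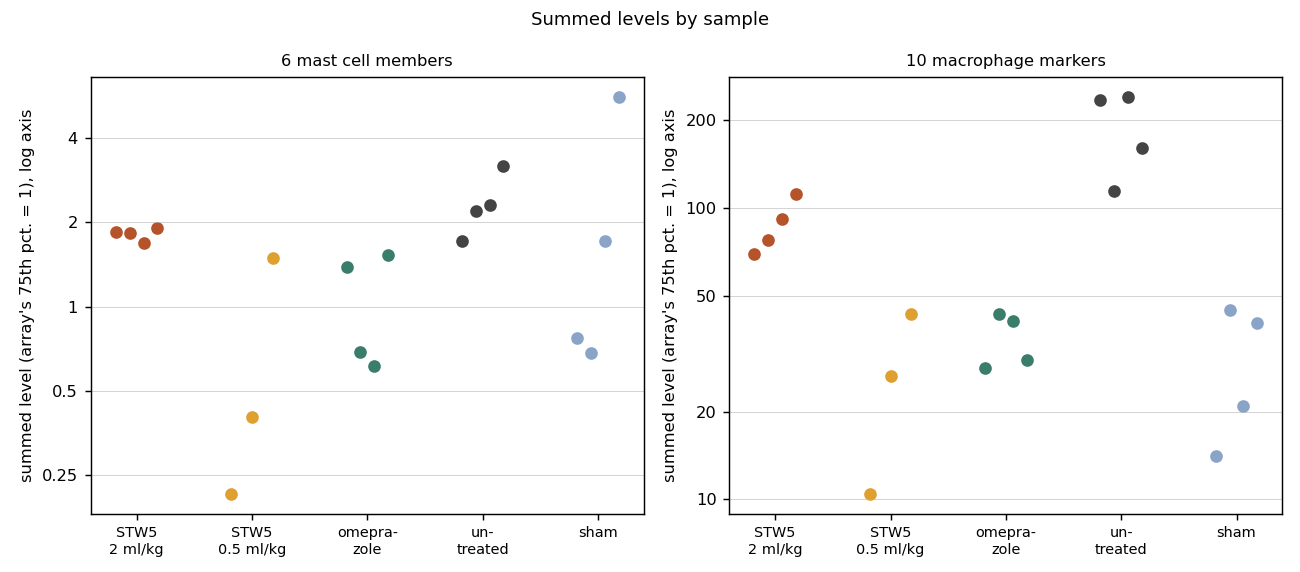
Summed linear level of the 6 tested mast cell members (left) and of 10 macrophage markers (right) per sample, on log axes where 1 is the array's 75th percentile; points are samples, with the averaged arrays 1 and 2 as 1 point at STW5 0.5 ml/kg. The macrophage sum separates untreated animals (114 to 240) from sham animals (14.1 to 44.6), and the mast cell sum (1.72 to 3.17 and 0.685 to 5.60) overlaps through sham array 4 alone, the other sham samples reaching 1.71. The mast cell sum is weighted to members with high levels, Cma1 having the highest mean in each group.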

How the data were processed

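RNA of rat oesophagi was measured on 20 one-colour Agilent arrays. The deposited scanner files give spot intensities, which Agilent Feature Extraction 10.7.3.1 had background-subtracted and detrended per the file headers; they carry no scaling across arrays. In the deposited value table each number is a ratio to the median of its array, since every column has a median of 1 and follows a scanner file; how it was computed is not given in the sources used here.

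Log2 intensities of a probe's spots were averaged after removal of outlier flags, and the 75th percentile of the array was subtracted. A probe was kept when 50% or more of its spots were marked well above background on 4 or more arrays. The 58717 features made 30367 probes, 11 of which had lost all spots on an array; 19914 were kept, 16118 of these had a gene name, and the probe with the highest mean stood for its gene. Names were updated to RefSeq (GRCr8) by accession for 18005 probes, symbol for 2668 and synonym for 547, while 1976 kept the array's name and 7171 had none. All 10 member probes matched by accession.

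One limma model (limma 3.58.1, R 4.3.3, data.table version 1.17.8) held the 5 groups, with lmFit and eBayes, 14 residual and 2.78 prior degrees of freedom. From it 9 contrasts were drawn, each adjusted over 13618 genes by Benjamini-Hochberg. In contrasts without the 0.5 ml/kg group the SE of a log2 change had a median of 0.245; 4 arrays per group limit the precision. The model was tested on simulated data.

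The members, and the lists of mast cell, eosinophil, ligand, signalling, histamine and other cell type genes, were chosen with earlier results of these data known, and so was the averaging of the near-identical arrays. All 9 members are named, with up to 4 genes of each list by smallest p in the contrast described, counts and ranges of other cell types, and, for likeness, genes among the 3 with the highest Pearson correlation; genes named beyond this were chosen after their values were seen. Replicate numbers were not taken as pairs: 19 of 40 same-numbered pairs of arrays had a correlation of deviations over 0.1 (-0.32 to 0.58).

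Alternatives were normexp background correction (offset 50), quantile normalization, median scaling, no filter, a stricter filter (8 arrays), signals raised to the background floor, 20 arrays as samples, a replicate block, 1 slide or 2 groups in the fit, the deposited value table, the mean of a gene's probes, and each sample left out. One result of the ligand list is not reported here.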

Additional observations from a re-analysis of the deposited data

How the results depend on the processing

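The deposited value table under its own labels exchanges the 2 STW5 doses, and with it 2 ml/kg called 5 members lower than untreated and 0.5 ml/kg called 0; 0.5 ml/kg called 1 (Ccr3) against sham and 2 ml/kg 0, and 2 ml/kg called 0 against omeprazole. Ccr3 then changed by -1.78 at 2 ml/kg and by 1.45 at 0.5 ml/kg against untreated, and 2 ml/kg minus 0.5 ml/kg gave -3.23 for Ccr3, -1.69 for Kit and -2.32 for Tpsab1. Normexp background correction called 1 member (Tpsab1) for untreated against sham and 1 for 0.5 ml/kg against untreated (Cpa3, Hdc, Kit and Ccr3 lost their calls), and 2 for 2 ml/kg against sham. Normexp gave Kit -0.13 between the doses, where the main fit gave 1.82. Its offset of 50 shrinks log2 changes of probes as dim as those of Kit and Ccr3, so it cannot decide on their calls. The stricter filter dropped Ccr3 and Fcer1a, which left 1 call for untreated against sham, 1 for omeprazole against untreated, and 0 for 2 ml/kg against sham and against omeprazole. Raising signals to the floor called Ccr3 at 2 ml/kg against untreated (1 call). With normexp, 1711 of all genes were called higher for untreated against sham, 1695 lower for 0.5 ml/kg against untreated and 607 higher for 2 ml/kg against sham. Member counts under the other alternatives in this section are given without the share of all genes called, so they show only which calls moved.

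With only the 2 groups in the fit, 1 member was called for untreated against sham (Ccr3 missed the threshold with an adjusted p of 0.0543), 3 for 0.5 ml/kg against untreated (3 also within the slide), 2 for 2 ml/kg against sham and 2 for 2 ml/kg against omeprazole (2 within the slide). Counting 20 arrays as samples called 5 between the doses. The replicate block, whose numbers were not taken as pairs in the main fit, gave 6 calls between the doses, 2 for 2 ml/kg against sham and 5 in the F test. Of 20 arrays 10 correlated best with their own number, and whether the numbers pair the samples is not known. Leaving out each sample in turn gave 3 to 6 calls for 0.5 ml/kg against untreated, 0 to 1 for 2 ml/kg against untreated, 1 to 2 for 2 ml/kg against sham, 2 to 5 between the doses and 3 to 4 in the F test; the other 5 counts did not move.

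Another scaling shifts all genes: for 0.5 ml/kg against untreated the median change over all genes was 0.17, 0.08 with quantile normalization and 0.27 with median scaling, and neither of these 2 moved a member count beyond 1.5 times. The share of higher calls among all genes called at 2 ml/kg against sham was 71%, and 45.8% with median scaling and 42% with normexp. It was 44.8% between the doses (30.3% and 18.8%), 54.2% at 2 ml/kg against untreated (44.1% and 37.8%), 57.7% at 0.5 ml/kg against untreated (64.4% and 69.9%) and 56.2% with omeprazole against untreated (43.1% and 47.7%, and 42.2% with quantile normalization). Dim probes limit Fcer1a, Ms4a2, Ccr3 and Il5ra. Ms4a2 and Il5ra were tested only without the filter, where Il5ra, above background on 0 arrays, was called higher at 0.5 ml/kg than untreated (6 of 9 members called) and lower at 2 ml/kg than 0.5 ml/kg (4 of 9), and passed the F test (4 of 9). Except where an alternative dropped members or samples, the cause of a changed call was not tested.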
